A study of Mus musculus with 32 samples.

Results

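Lactate transport and lactate dehydrogenase were followed through 8 genes, taken by name as rows of the deposited count table, out of 42524 genes in that table. They are the monocarboxylate transporters Slc16a1, Slc16a3 and Slc16a7, their chaperone Bsg, the lactate dehydrogenase subunits Ldha and Ldhb, the hexokinase Hk2 and the transcription factor subunit Hif1a. The data are RNA-seq counts of spinal cord from 32 mice, 4 in each of 8 groups, and address whether these genes differ with the G93A transgene, with OKN-007 treatment and with age. G93A mice carry a human SOD1 gene with the G93A mutation, on the C57BL/6J background, and develop motor neuron disease. The transgene is driven by the human SOD1 promoter in all tissues, and the cell type in which a change arises was not tested. Wildtype (WT) mice were littermates without it. Treated mice drank OKN-007, a nitrone with antioxidant and anti-inflammatory activity, while untreated mice drank water, and the labels give no dose. The labels give the times as 90 and 155 days, which are followed here as ages at sacrifice, although the study's methods put the earlier age slightly later. The human SOD1 transgene has no row in this mouse table and was not analysed here, so the genotype labels rest on the labels themselves.

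Lactate crosses cell membranes together with a proton through monocarboxylate transporters. MCT1, the Slc16a1 product, is known from oligodendrocytes, endothelium and other glia, MCT4 (Slc16a3) from astrocytes and other strongly glycolytic cells, and MCT2 (Slc16a7) from neurons. Basigin, the Bsg product, carries MCT1 and MCT4 to the cell surface. Lactate dehydrogenase is a tetramer of A and B subunits, and tetramers rich in Ldha favour lactate formation while those rich in Ldhb favour its use. Hexokinase 2 is an inducible enzyme of the first step of glycolysis, the phosphorylation of glucose. Hif1a encodes the oxygen-regulated subunit of the hypoxia-inducible factor (HIF). That subunit is controlled largely through the stability of its protein, and HIF drives many glycolytic genes.

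Promoter sequences are shown for the 4 genes with the largest changes, Slc16a1, Slc16a3, Ldha and Hk2, and for Ldhb, which moved the other way. RefSeq promoters of build GRCm38.p6, running from 250 bases before to 50 bases after the transcription start, were matched by symbol for 6 of the 8 genes, and not for Slc16a7 and Bsg. Capitals mark each ACGTG or GCGTG, the core letters of the HIF-binding element, on either strand, and a CACGTG is read as ACGTG on both strands.
Slc16a1 promoter, chr3:104638414-104638713, plus strand: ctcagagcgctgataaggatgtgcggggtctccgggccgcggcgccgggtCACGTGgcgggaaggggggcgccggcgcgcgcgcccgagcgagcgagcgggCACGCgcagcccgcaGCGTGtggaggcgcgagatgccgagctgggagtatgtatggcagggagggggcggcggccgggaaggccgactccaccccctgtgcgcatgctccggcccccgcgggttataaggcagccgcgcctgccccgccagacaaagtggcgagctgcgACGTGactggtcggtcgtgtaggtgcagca
Slc16a3 promoter, chr11:120948817-120949116, plus strand: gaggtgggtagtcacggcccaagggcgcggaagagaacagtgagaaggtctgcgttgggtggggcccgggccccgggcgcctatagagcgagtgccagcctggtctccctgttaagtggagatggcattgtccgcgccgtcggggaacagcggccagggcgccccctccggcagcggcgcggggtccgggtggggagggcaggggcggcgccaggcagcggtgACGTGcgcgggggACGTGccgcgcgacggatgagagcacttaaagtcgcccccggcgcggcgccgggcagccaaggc
Ldha promoter, chr7:46845554-46845853, plus strand: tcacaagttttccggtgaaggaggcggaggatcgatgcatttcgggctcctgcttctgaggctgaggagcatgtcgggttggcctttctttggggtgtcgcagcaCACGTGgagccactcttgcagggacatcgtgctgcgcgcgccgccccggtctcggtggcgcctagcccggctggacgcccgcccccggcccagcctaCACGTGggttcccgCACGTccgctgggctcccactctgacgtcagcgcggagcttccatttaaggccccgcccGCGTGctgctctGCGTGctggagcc
Hk2 promoter, chr6:82774405-82774704, minus strand: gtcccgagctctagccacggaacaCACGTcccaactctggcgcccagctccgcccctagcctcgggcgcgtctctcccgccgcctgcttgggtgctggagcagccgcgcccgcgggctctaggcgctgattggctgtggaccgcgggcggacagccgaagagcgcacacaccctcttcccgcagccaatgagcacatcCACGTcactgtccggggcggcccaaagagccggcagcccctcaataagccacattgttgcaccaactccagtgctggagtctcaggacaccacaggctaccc
Ldhb promoter, chr6:142507908-142508207, minus strand: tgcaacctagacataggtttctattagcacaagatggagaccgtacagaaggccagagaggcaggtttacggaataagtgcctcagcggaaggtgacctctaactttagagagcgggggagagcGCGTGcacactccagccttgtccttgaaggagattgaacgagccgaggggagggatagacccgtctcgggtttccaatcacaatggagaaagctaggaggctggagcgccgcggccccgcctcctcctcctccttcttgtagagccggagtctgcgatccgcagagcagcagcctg
The Slc16a1 window held ACGTG 3 times, 2 of them in its single CACGTG, and GCGTG 2 times. The first of the 2 Ldha promoters held ACGTG 5 times, 4 of them in its 2 CACGTG, and GCGTG 2 times, whereas the second Ldha promoter held GCGTG 2 times and ACGTG 0 times. The Slc16a3 and Hk2 windows each held ACGTG 2 times and GCGTG 0 times. The Ldhb window held GCGTG 1 time and no ACGTG. The Hif1a promoter, whose letters are not shown, held ACGTG 3 times, 2 of them in its single CACGTG. These letters are common: of 32851 promoters of the same length, 19.6% held ACGTG, 32.4% held GCGTG, 43.8% held either and 7.15% held CACGTG. The matches describe letters only and no binding was measured.

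Library depth ran from 19701722 to 30138257 reads assigned to genes (median 26658755), and levels are given as CPM, the count scaled by library size and TMM factor. At the smallest depth 3 counts correspond to 0.152 CPM, a limit that covers counting error only. All 8 genes lay above it in every mouse and entered every test, with 20 to 299 counts per mouse for Slc16a3 and at least 78 for each of the others. Some libraries stood apart in other tissues' genes. Schwann cell markers summed to 1650 CPM in untreated WT mouse 3 at 90 days and 389 CPM in untreated G93A mouse 10 at 90 days, against 82.7 to 146 CPM in the 6 groups that hold neither mouse, and liver markers summed to 183 CPM in untreated G93A mouse 12 and 125 CPM in OKN-007-treated G93A mouse 15 at 155 days. Caudal Hox genes, which mark position along the cord, summed to 86.2 to 153 CPM in untreated WT and 4.26 to 82.2 CPM in untreated G93A mice at 155 days. In OKN-007-treated mice of that age they summed to 128 to 169 CPM in WT and 22.6 to 68.2 CPM in G93A mice. Fits with the score of these genes as a covariate are given where they change a call. Score and genotype largely go together at this age, so their parts in a lost call cannot be told apart. The labels name no batch, so none could be compared within, and they do not say whether samples of a group shared a litter or cage.

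Per kilobase of exon, the 8 genes spanned a wide range in the untreated WT cord at 155 days. Ldhb had the highest level at 460 ± 62.4 CPM per kb (SD, n = 4), followed by Bsg at 373 ± 52.2 CPM per kb, and the ranges of these neighbours overlapped. Slc16a1 stood at 25.8 ± 3.38 CPM per kb, Ldha at 21.1 ± 2.16 and Hif1a at 18.0 ± 3.27, each overlapping the next in range. Slc16a7 (1.02 ± 0.0456), Hk2 (0.682 ± 0.144) and Slc16a3 (0.201 ± 0.0369 CPM per kb) were the lowest, with no overlap among them. In untreated G93A mice of that age the order at the bottom differed. Hk2 reached 4.06 ± 1.15 CPM per kb and Slc16a3 1.57 ± 0.540 CPM per kb, both above the mean of Slc16a7 at 1.18 ± 0.267 CPM per kb, although the ranges of Slc16a3 and Slc16a7 overlapped. Exon lengths came from GENCODE M21, an annotation older than the one the counts were made on.

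**Figure D1:**
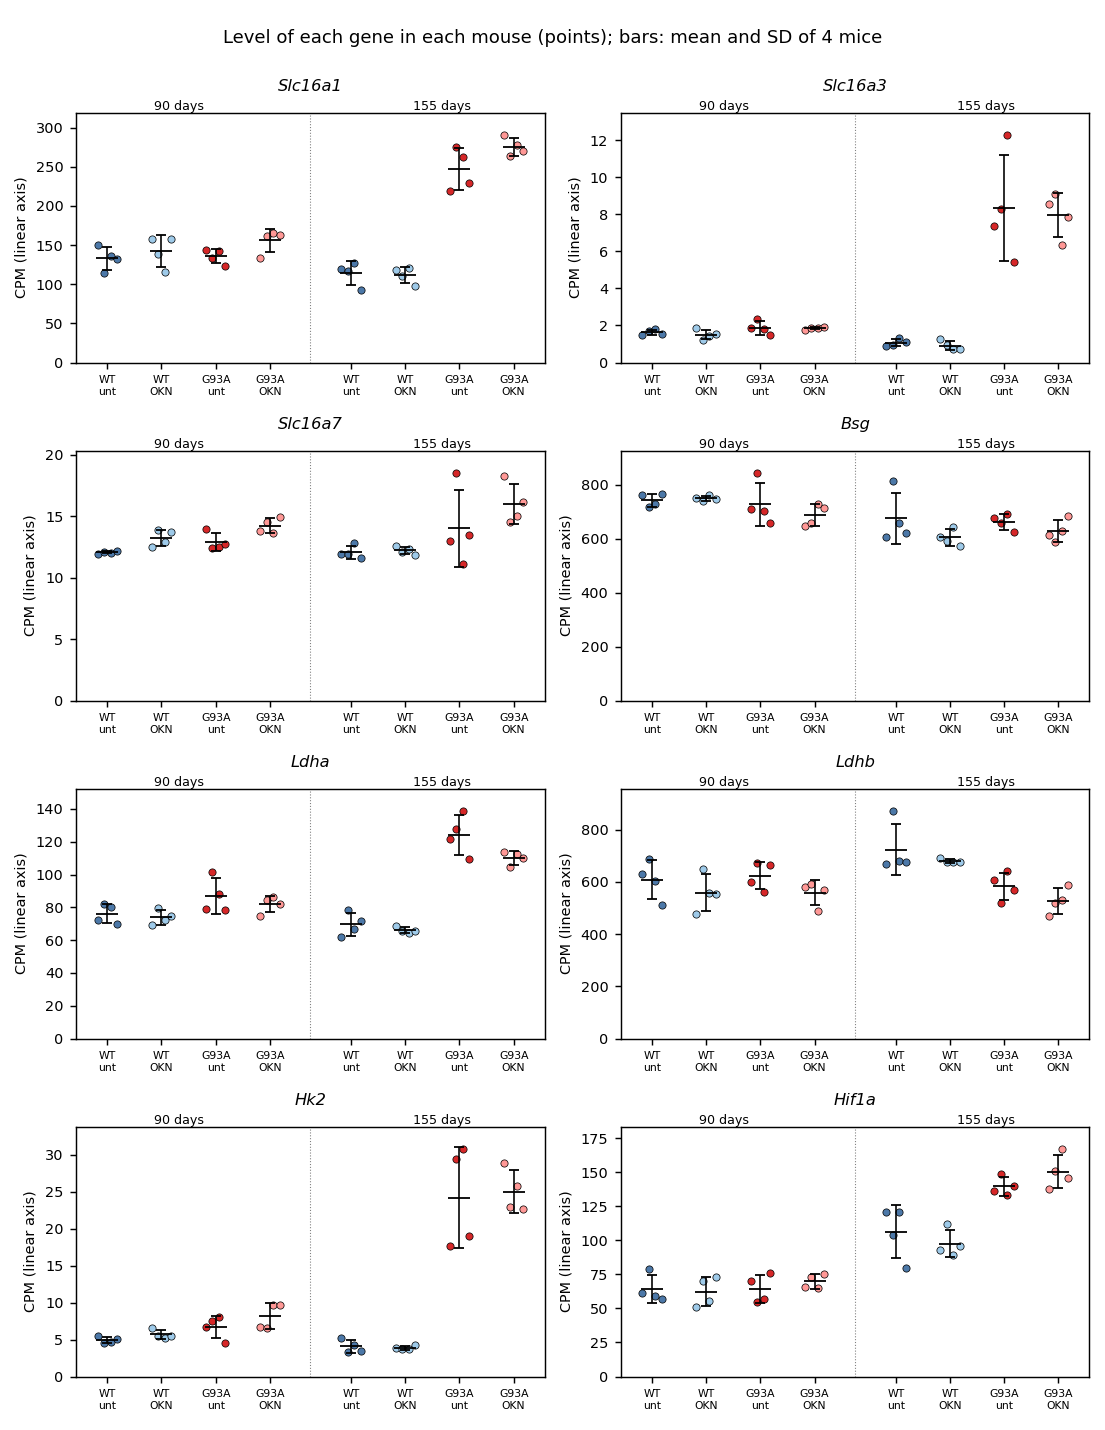
CPM of each of the 8 genes (panels, linear axes from 0) in each of 32 mice, grouped by genotype (WT, G93A), treatment (unt, untreated; OKN, OKN-007) and age, with points for mice and bars for the mean and SD of 4. At 155 days every G93A mouse lies above every WT mouse for Slc16a1, Slc16a3, Ldha, Hk2 and Hif1a, while no such gap appears at 90 days for these genes in untreated mice.

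The G93A comparison in untreated mice at 155 days asks how the genes stood at the later age. Among the transporters, Slc16a1 and Slc16a3 rose, Slc16a7 and the chaperone Bsg did not pass the test, Ldha rose while Ldhb fell, and Hk2 and Hif1a rose. In all, 6 of the 8 passed an adjusted p of 0.05, 5 higher and 1 lower, in edgeR's quasi-likelihood test with Benjamini-Hochberg adjustment over 18675 genes. Of all genes tested, 39.5% passed in this comparison, 21.3% higher and 18.2% lower. At an unadjusted p under 0.05 the same 6 passed, against 47.2% of all genes, and for the same 6 the groups of 4 mice did not overlap, against 32.7% of all genes. The median log2 fold change of the 8 genes was 0.63, and 0.00 over all genes. The 8 genes were chosen with earlier results of these data known, so setting them beside all genes is a description and not an independent test.

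Slc16a1, the MCT1 gene, read 219, 276, 263 and 229 CPM in the untreated G93A mice and 119.8, 117, 127 and 92.8 CPM in the untreated WT mice at 155 days. Every G93A mouse lay above every WT mouse. The log2 fold change was 1.12 ± 0.10 (SE), a 2.18-fold higher level, with an adjusted p of 3.94e-08 by edgeR. Leaving out any one mouse gave 1.05 to 1.19.

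Slc16a3, the MCT4 gene, was scarce in WT cord, at 0.894, 0.954, 1.34 and 1.08 CPM in the untreated mice at 155 days. It read 7.34, 8.31, 12.3 and 5.45 CPM in the untreated G93A mice. The groups did not overlap, and the widest value was that of mouse 11. The log2 fold change was 2.97 ± 0.24 (SE), 7.83-fold higher, with an adjusted p of 1.44e-08 by edgeR, and it ranged from 2.74 to 3.13 over the mice left out.

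Slc16a7, the MCT2 gene, read 13.01, 18.48, 11.07 and 13.45 CPM in untreated G93A and 11.95, 11.89, 12.83 and 11.57 CPM in untreated WT mice. The groups overlapped, with mouse 10 far above the other 3 G93A mice. Its log2 fold change of 0.23 ± 0.12 (SE) had a 95% interval from -0.03 to 0.48 and an adjusted p of 0.144 by edgeR. Without mouse 11 it was 0.34 with an adjusted p of 0.0298, whereas with the caudal Hox score added to the fit it was -0.05. Its exons share 179 bases with an opposite-strand transcript, Gm47862, and how strand was used in counting is not given in the sources used here.

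Bsg, the chaperone gene, was abundant, at 677, 656.5, 693 and 623 CPM in untreated G93A mice and 607, 814, 659 and 623 CPM in untreated WT mice. The groups overlapped fully, at a log2 fold change of -0.01 ± 0.08 (SE) with a 95% interval from -0.19 to 0.16 and an adjusted p of 0.909 by edgeR. The highest value belonged to WT mouse 2, and without it the log2 fold change was 0.10.

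Ldha, the A subunit gene, read 122, 128, 138.5 and 109.2 CPM in untreated G93A mice at 155 days. The untreated WT mice read 61.7, 78.4, 66.8 and 71.9 CPM, all below them. Ldha was thus higher by 0.85 ± 0.08 (SE) on the log2 scale, 1.80-fold, with an adjusted p of 8.44e-08 by edgeR and a range of 0.80 to 0.92 over the mice left out. The annotation names 2 Ldha pseudogenes, with which reads could be shared.

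Ldhb, the B subunit gene, read 606, 519.8, 640.1 and 567 CPM in untreated G93A mice and 667, 869, 681 and 674 CPM in untreated WT mice. The groups did not overlap, but WT mouse 2 stood far above the other 3 WT mice, whose values lay close together. Ldhb fell by 0.29 on the log2 scale, with an SE of 0.09 and an adjusted p of 0.0131 by edgeR. Without WT mouse 2 the log2 fold change was -0.18 with an adjusted p of 0.0708, and without G93A mouse 10 it was -0.23 with an adjusted p of 0.0705. The call was also lost when only the compared groups were fitted (adjusted p = 0.0581) and with the caudal Hox covariate (log2 fold change -0.20, adjusted p = 0.246).

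Hk2, the inducible hexokinase gene, read 17.6, 29.4, 30.8 and 19.0 CPM in untreated G93A and 5.21, 3.38, 4.24 and 3.44 CPM in untreated WT mice. The G93A mice spread widely, with 2 of them well above the other 2, but all lay far above every WT mouse. The change was 2.58 ± 0.18 (SE) on the log2 scale, 5.98-fold, with an adjusted p of 1.83e-09 by edgeR, and it ranged from 2.46 to 2.73 over the mice left out.

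Hif1a, the HIF subunit gene, read 136, 149, 133 and 140.1 CPM in untreated G93A mice and 121, 104, 121 and 79.9 CPM in untreated WT mice. The groups did not overlap, though 2 WT mice came close to the lowest G93A mouse. Hif1a rose by 0.41 ± 0.11 (SE) on the log2 scale, 1.32-fold, with an adjusted p of 0.00639 by edgeR. With the caudal Hox covariate it was 0.32 with an adjusted p of 0.111. Its exons share 330 bases with the antisense gene Gm15283 and 148 bases with Gm49321 on the same strand, so its counts are uncertain to that extent.

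Markers of several cell types moved in the same comparison. All 8 microglial markers rose, with sums of 1367 to 2432 CPM in untreated G93A against 318 to 391 CPM in untreated WT mice. Of 8 astrocyte markers 6 rose, with sums of 13837 to 17419 CPM against 4798 to 5327 CPM. Such sums weigh the most abundant markers most. The median log2 fold change of these 8 was 0.43, and their mean log2 level was 9.20 to 9.56 in G93A and 8.585 to 8.67 in WT mice. Of 7 motor neuron markers 6 fell, from sums of 262 to 317 CPM in WT to 154 to 179.8 CPM in G93A mice, and of 7 further neuronal markers 6 fell, from 10703 to 13515 CPM down to 5299 to 7650 CPM, while Gap43 rose. Oligodendrocyte markers summed to 21455 to 26025 CPM in the G93A and to 22039 to 24172 CPM in the WT mice, and endothelial markers to 239 to 289 CPM and 230 to 299 CPM. No marker of these 6 lists was at 0 in any mouse. In bulk tissue, more or fewer cells of a type and more or less RNA per cell cannot be told apart, and the part these markers play in the changes of the 8 genes was not tested.

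The same comparison between OKN-007-treated mice at 155 days rests on 8 other mice. Here 7 of the 8 genes passed, 6 higher and Ldhb lower, where 41.5% of all genes passed. The same 7 had an unadjusted p under 0.05, against 48.9% of all genes. Slc16a1 read 290.1, 264, 278 and 269.6 CPM in treated G93A mice and 118, 111, 121 and 97.5 CPM in treated WT mice, a log2 fold change of 1.33 ± 0.10 (SE). Slc16a3 rose from 0.706 to 1.28 CPM up to 6.34 to 9.07 CPM, a log2 fold change of 3.15 ± 0.24 (SE). Ldha (0.78 ± 0.08), Hk2 (2.72 ± 0.18) and Hif1a (0.66 ± 0.11, log2 fold change ± SE) also rose, with adjusted p-values of at most 9.48e-05 by edgeR. For each of these 5 genes the groups were separate, as they were for Slc16a7 and Ldhb, where 44.5% of all genes had separate groups.

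Slc16a7 passed the test in treated mice, at 18.3, 14.5, 15.1 and 16.1 CPM in G93A against 12.6, 12.1, 12.3 and 11.8 CPM in WT mice. Its log2 fold change was 0.43 ± 0.12 (SE) with an adjusted p of 0.00767 by edgeR, and 0.16 with an adjusted p of 0.423 with the caudal Hox covariate. Ldhb fell by 0.33 with an SE of 0.09 and an adjusted p of 0.00566, and by 0.23 with an adjusted p of 0.155 with that covariate. Bsg, with a log2 fold change of 0.09 ± 0.08 (SE), did not pass. Microglial markers of the treated mice summed to 1680 to 2053 CPM with the transgene and 297 to 345 CPM without it, and their part was not tested. Whether the G93A change differed with treatment was tested by the genotype by treatment interaction, in which 0 of the 8 genes and 0 of 18675 genes passed at 155 days by edgeR. At an unadjusted p under 0.05, 436 genes (2.33%) and 0 of the 8 passed, and DESeq2 called 3 genes, 0 of them among the 8. At 90 days the interaction likewise passed for 0 of the 8, and 2.81% of all genes had an unadjusted p under 0.05. For Slc16a7 the interaction was 0.20 with a 95% interval from -0.16 to 0.55, so a difference between the arms was neither shown nor excluded.

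**Figure D2:**
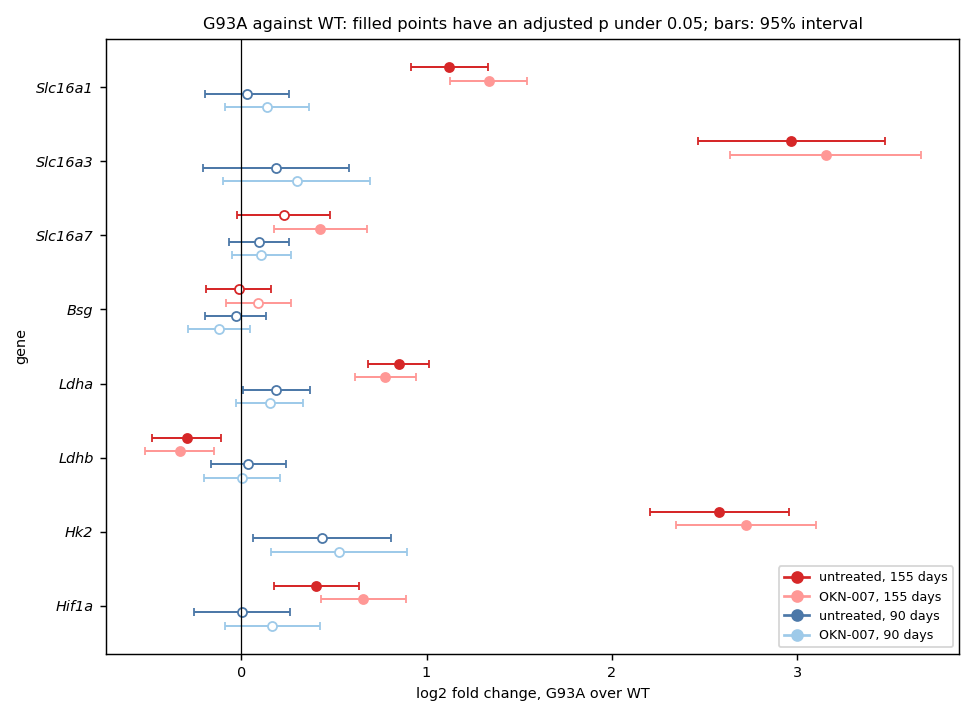
Log2 fold change of G93A over WT mice (x axis) for each gene (y axis), in untreated and OKN-007-treated mice at 155 and 90 days, with 95% intervals from edgeR's quasi-likelihood fit. Filled points passed an adjusted p of 0.05: 6 genes in untreated and 7 in treated mice at 155 days, and 0 at 90 days.

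At 90 days 0 of the 8 genes and 0 of 18899 genes passed by edgeR, in untreated as in treated mice. At an unadjusted p under 0.05, 1126 genes (5.96%) passed in untreated and 747 (3.95%) in treated mice, and DESeq2 called 15 genes and 1 gene, none of them among the 8. Of the 8, Hk2 and Ldha had an unadjusted p under 0.05 in untreated mice and Hk2 alone in treated mice. Hk2 was the member with the lowest unadjusted p in both. It read 6.69, 7.47, 8.08 and 4.57 CPM in untreated G93A mice against 5.45, 4.55, 4.72 and 5.04 CPM in untreated WT mice, which overlapped. In treated mice it read 6.77, 6.62, 9.67 and 9.68 CPM in G93A against 6.56, 5.42, 5.28 and 5.54 CPM in WT, with every G93A mouse higher but only narrowly. For Hk2 the log2 fold changes were 0.44 ± 0.18 (SE; unadjusted p = 0.0234, adjusted p = 0.822) and 0.53 ± 0.17 (unadjusted p = 0.00705, adjusted p = 0.9996) by edgeR. Ldha read 78.8, 102, 87.9 and 78.2 CPM in untreated G93A mice, overlapping the 72.3, 81.8, 80.3 and 70.1 CPM of the untreated WT group. Its log2 fold change was 0.19 ± 0.09 (SE) with an unadjusted p of 0.0404 and an adjusted p of 0.822, which was 0.10 without G93A mouse 10. For Slc16a1 the log2 fold change was 0.03 ± 0.11 in untreated and 0.14 ± 0.11 (SE) in treated mice, and for Slc16a3 0.19 ± 0.19 and 0.30 ± 0.19. The groups of 4 were separate for Slc16a7 in untreated mice (12.39 to 13.99 CPM in G93A against 11.96 to 12.19 CPM in WT), where 2.4% of all genes had separate groups, and in treated mice for Hk2 and Bsg (648 to 728 CPM in G93A against 739 to 761 CPM in WT), where 2.84% had. Microglial markers at this age summed to 376 to 577 CPM in untreated G93A and 370 to 421 CPM in untreated WT mice, which overlapped, with 0 of 8 past an adjusted p of 0.05 and 3 of 8 at an unadjusted p under 0.05. In treated mice of this age they summed to 455 to 538 CPM with the transgene and 375.5 to 449 CPM without it, which did not overlap, with 0 of 8 past an adjusted p of 0.05 and 5 of 8 at an unadjusted p under 0.05 by edgeR. The mean log2 level of the astrocyte markers was also separate in treated mice, at 8.90 to 8.95 with the transgene and 8.71 to 8.84 without it (exact permutation p = 0.0286, adjusted over 48 tests 0.114). The sums of the astrocyte markers overlapped, at 8320 to 8859 CPM with the transgene and 6441 to 8389 CPM without it. The mean log2 level of the microglial markers overlapped too, at 5.26 to 5.44 and 4.95 to 5.29 (exact permutation p = 0.0857, adjusted 0.294). That of the endothelial markers was lower with the transgene and separate, at 4.76 to 5.11 and 5.14 to 5.18 (exact permutation p = 0.0286, adjusted 0.114). The part of these markers in the Hk2 and Ldha values was not tested.

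The difference of the G93A change between the ages was tested in one fit of all 32 mice over 19829 genes. In untreated mice 4 of the 8 genes passed, all with a larger log2 change at 155 days, where 21.2% of all genes passed, 12.9% with a higher and 8.34% with a lower change. The differences were 1.08 ± 0.15 (SE) for Slc16a1, 2.78 ± 0.30 for Slc16a3, 0.65 ± 0.12 for Ldha and 2.14 ± 0.25 for Hk2 on the log2 scale, with adjusted p-values of at most 0.000122 by edgeR. For Ldhb (-0.35, adjusted p = 0.0780) and Hif1a (0.39, adjusted p = 0.118) the difference did not pass. In treated mice, where 23% of all genes passed, the same 4 genes did, at 1.16 ± 0.15 (SE) for Slc16a1, 2.82 ± 0.30 for Slc16a3, 0.59 ± 0.12 for Ldha and 2.16 ± 0.25 for Hk2. Age and any batch of sacrifice or sequencing cannot be told apart in these differences.

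In untreated WT mice alone, 2 of the 8 genes differed between 155 and 90 days, where 24.9% of all genes passed. Here too, age and any batch of sacrifice or sequencing cannot be told apart. Hif1a read 61.0, 79.2, 59.4 and 57.2 CPM at 90 days and, as given above, 79.9 to 121 CPM at 155 days. Every older mouse lay above every younger one, and 18.9% of all genes had separate groups in this comparison. Hif1a was higher by 0.73 ± 0.13 (SE) on the log2 scale at 155 days, with an adjusted p of 0.000325 by edgeR. Slc16a3 read 1.51, 1.70, 1.79 and 1.56 CPM at 90 days and fell by 0.62 on the log2 scale by 155 days, with an SE of 0.22 and an adjusted p of 0.0403. Leaving out any of 7 of the 8 mice, each apart from WT mouse 3 at 155 days, raised that adjusted p to between 0.0533 and 0.113. Oligodendrocyte markers summed to 33951 to 40682 CPM at 90 and 22039 to 24172 CPM at 155 days in these mice, and their part was not tested.

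The scaling of a library cancels in a ratio of its genes, apart from the prior count of 2 in log2 CPM. That prior weighs most where counts are low, as for Slc16a3. On this basis 3 ratios were compared, each with an exact two-sided permutation test of 4 against 4 mice. The log2 ratio of Ldha to Ldhb was -2.23 ± 0.15 (SD, n = 4) in untreated G93A and -3.37 ± 0.11 in untreated WT mice at 155 days. Each G93A library lay above each WT library, by 1.14 on average, with an exact p of 0.0286, the smallest that 4 against 4 can give, and 0.114 after adjustment over 24 tests. The treated mice gave -2.25 ± 0.16 and -3.36 ± 0.03 (SD), with the same exact p. At 90 days the untreated groups overlapped, at -2.85 ± 0.19 in G93A and -2.99 ± 0.12 in WT mice (exact p = 0.314). The Slc16a3 to Slc16a1 ratio was higher by 1.72 on the log2 scale in untreated G93A mice at 155 days, and that of Slc16a1 to Slc16a7 was higher by 0.92, each with separate groups and the exact p of 0.0286. Each had the same adjusted p of 0.114. Values of CPM count reads and not protein, so the subunit makeup of the enzyme was not measured.

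**Figure D3:**
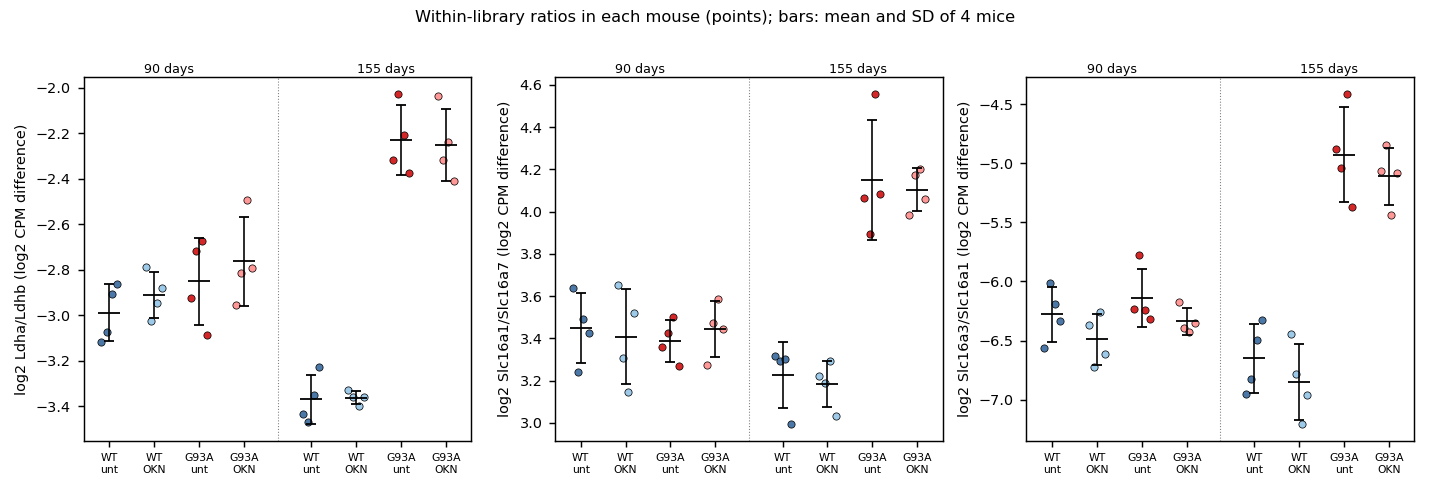
Log2 ratios of Ldha to Ldhb, Slc16a1 to Slc16a7 and Slc16a3 to Slc16a1 (y axes, in log2 units) in each mouse, by group and age, with the mean and SD of 4 mice. The Ldha to Ldhb ratio lies between -2.41 and -2.03 in all G93A mice at 155 days and between -3.47 and -3.23 in all WT mice of that age.

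OKN-007 was compared with water within each genotype and age. These comparisons share their mice with those above. By edgeR 0 of the 8 genes passed in any of the 4 comparisons, and 0% of all genes did. DESeq2 called 3 genes in WT mice at 155 days, 0 of them among the 8, and 0 genes in the other comparisons. An unadjusted p under 0.05 was reached by 0 of the 8 in each, while 755 genes (4.04%) reached it in G93A and 549 (2.94%) in WT mice at 155 days, and 5.56% and 4.07% at 90 days. Treated and untreated groups overlapped for the 8 genes in every case but 1, against 3.06% and 1.84% of all genes with separate groups at 155 days, and 2.88% and 2.03% at 90 days, in G93A and WT mice. The exception was Slc16a7 in WT mice at 90 days, with 12.49 to 13.88 CPM in treated and 11.96 to 12.19 CPM in untreated mice. In G93A mice at 155 days Ldha came nearest, with 114, 104, 113 and 110.3 CPM in treated mice against 109.2 to 138.5 CPM in untreated mice. Its groups overlapped, and the log2 fold change was -0.16 ± 0.08 (SE) with a 95% interval from -0.32 to 0.00 and an adjusted p of 0.9996. For Slc16a1 the log2 fold change was 0.17 with an interval from -0.03 to 0.37, for Hk2 0.06 with an interval from -0.27 to 0.40, and for Slc16a3 -0.05 with an interval from -0.48 to 0.37. The interval for Hif1a was -0.12 to 0.34 and that for Ldhb -0.33 to 0.05. Changes inside these intervals were not excluded with 4 mice per group. In WT mice at 155 days Bsg had the lowest unadjusted p of the 8 at 0.0517, with a log2 fold change of -0.17 ± 0.08 (SE), and the highest untreated value was again that of mouse 2. At 90 days the treated minus untreated log2 changes ran from -0.16 for Ldhb to 0.29 for Hk2 in G93A mice and from -0.12 for Slc16a3 to 0.20 for Hk2 in WT mice. The OKN-007 effect in G93A mice did not pass a test of its difference between the ages for any of the 8 genes.

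**Figure D4:**
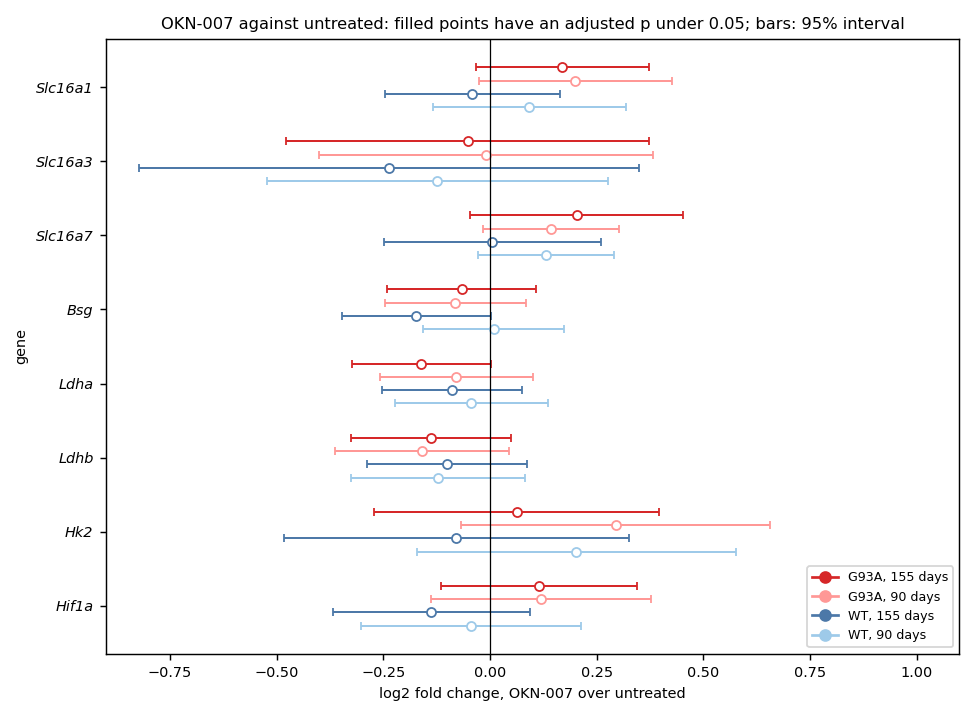
Log2 fold change of OKN-007-treated over untreated mice (x axis) for each gene (y axis), in G93A and WT mice at 155 and 90 days, with 95% intervals from edgeR's quasi-likelihood fit. All points are open, since 0 of the 8 genes passed an adjusted p of 0.05, and every interval includes 0.

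The neighbouring steps of metabolism were read from lists of genes chosen by textbook role, with earlier results of these data known. The counts below are for untreated mice at 155 days unless stated, where 39.5% of all genes passed. Of 23 further genes of lactate and pyruvate handling 18 were tested, and 5 rose and 7 fell, with a median log2 fold change of -0.16. The genes that rose included Pdk4, a kinase that switches off pyruvate dehydrogenase (log2 fold change 1.21 ± 0.25 SE, adjusted p = 0.000767), Ldhd, which oxidises D-lactate (0.53 ± 0.08, adjusted p = 5.28e-05), and Me1, the cytosolic malic enzyme (0.41 ± 0.07, adjusted p = 0.000183). Pdk3, another such kinase, fell by 0.41 (adjusted p = 0.000376), and Pdp1, the phosphatase that switches pyruvate dehydrogenase on, fell by 0.45 (adjusted p = 0.000878). In treated mice of that age, where 41.5% of all genes passed, 5 rose and 6 fell in this list.

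Of 22 genes of glucose entry and glycolysis, all tested, 4 rose and 3 fell, and the median log2 fold change was -0.04. Hk3, the hexokinase of blood-lineage cells, rose most, from 1.46 ± 0.33 to 11.2 ± 3.71 CPM (SD, n = 4), a log2 fold change of 2.96 ± 0.22 (SE) with an adjusted p of 4.34e-09. Pfkfb4, which makes the activator of phosphofructokinase, rose by 0.77 ± 0.10, and Pfkl, the liver-type phosphofructokinase, rose by 0.38 ± 0.06. Eno2, the neuronal enolase, fell by 0.65 on the log2 scale with an SE of 0.11, and Slc2a3, the neuronal glucose transporter, fell by 0.40 with an SE of 0.10. Gapdh, a glycolytic dehydrogenase that did not pass, stood at 876 ± 33.1 CPM (SD, n = 4) with the transgene and 925 ± 168 CPM without it. In treated mice 4 rose and 5 fell, where 41.5% of all genes passed.

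Of 10 other genes of the HIF system, Vhl, which marks HIF for destruction, rose by 0.32 ± 0.07 (SE), Hif1an, which hydroxylates HIF, fell by 0.24 with an SE of 0.09, and the other 8 did not pass. Of 20 HIF target genes 18 were tested, 6 rose and 4 fell, with a median log2 fold change of 0.17. P4ha1, a collagen prolyl hydroxylase, rose by 0.83 ± 0.11 and Ndrg1 by 0.35 ± 0.07 (SE), and Pfkfb4 counts here too. Vegfa, the angiogenic growth factor, fell by 0.40 on the log2 scale with an SE of 0.08 and an adjusted p of 0.000409. In treated mice 2 rose and 2 fell among the 10 genes of the HIF system, and 6 rose and 3 fell among the 18 targets, where 41.5% of all genes passed. In OKN-007 comparisons and at 90 days 0 genes of these lists passed.

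**Figure D5:**
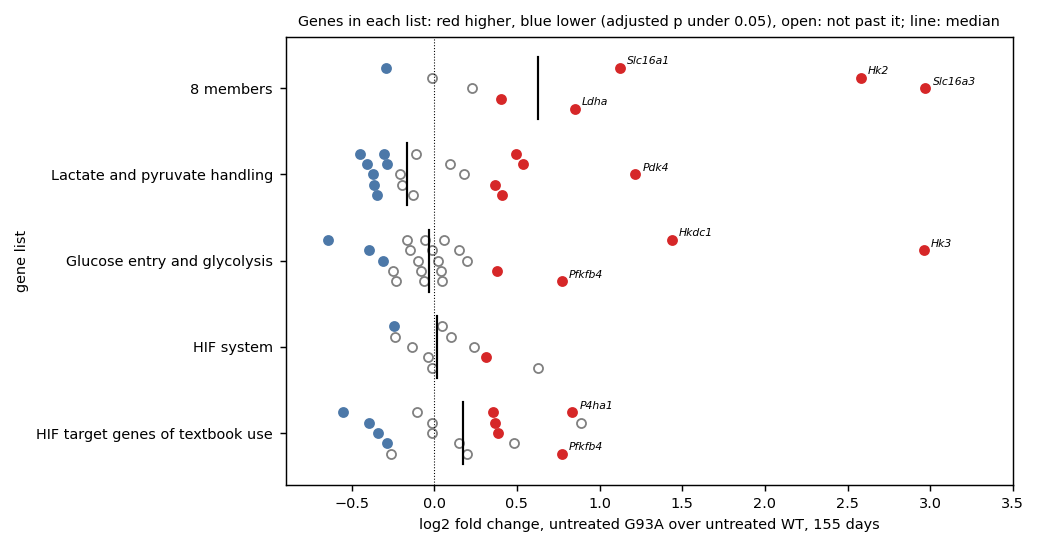
Log2 fold change of untreated G93A over untreated WT mice at 155 days (x axis) for the 8 genes and for the tested genes of the 4 further lists (y axis), apart from 1 HIF target that is not drawn, with a line at each list's median over all its tested genes. Red and blue points passed an adjusted p of 0.05 as higher or lower, open points did not, and names are given for genes past it with a change above 0.75 on the log2 scale.

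Across the 32 mice, the genes whose log2 CPM followed each member most closely are given as a description by Pearson's r, since the mice share the same group differences. For Slc16a1 these were Cx3cr1 (r = 0.978), Apbb1ip (0.973) and Fcgr1 (0.972). Slc16a3 was closest to Olfml3 (0.979), Hexa (0.978) and Cd84 (0.977), and Hk2 to Lpl (0.987), Ptprc (0.987) and Itgam (0.986). Cx3cr1 and Itgam are on the list of microglial markers. Ldha was closest to Cavin3 (0.964), Mlc1 (0.962) and Gpx1 (0.962), and Hif1a to Lman1 (0.974), Sdcbp (0.972) and Pcdhgc3 (0.965). Ldhb was closest to Mdh1 (0.957), Ndufa9 (0.954) and Tpi1 (0.944), Bsg to Ndufb11 (0.885), Drap1 (0.872) and Timm13 (0.869), and Slc16a7 to Has2 (0.798), Itga2 (0.783) and Rasa3 (0.754).

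Among the members themselves, Slc16a1 and Hk2 had an r of 0.964 over the 32 mice and 0.570 after each group's mean was removed. Slc16a3 and Hk2 had 0.961 and 0.396, and Ldha and Ldhb -0.347 and 0.417. Bsg and Ldha, which were unrelated over all mice at -0.005, had 0.583 within groups. The within-group values come from 4 mice per group that share a library's scaling, and are given without a test.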

How the data were processed

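RNA from spinal cord was made into stranded mRNA libraries and sequenced. Per the labels the authors deposited raw read counts per gene, not normalized. The submitters' processing notes name FastQC, STAR, featureCounts and edgeR with mouse and human builds, whereas the paper's methods name Trimmomatic, STAR, HTSeq, GRCm38 and GENCODE M10. All 1306 IDs absent from GENCODE M21 are numbered above its highest ID, so the table was counted on a later annotation than M21. M21 gave symbols for 96.9% of 42524 IDs, exon lengths and overlaps, and no gene coordinates are printed from it. Promoters came from RefSeq.

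Counts were analysed with edgeR 4.0.16 in R 4.3.3 (filterByExpr, TMM, glmQLFit and glmQLFTest, two-sided). Each age was fitted on its 16 mice as 4 groups, and differences between ages on all 32 mice, with Benjamini-Hochberg adjustment over all genes tested. Standard errors came from the F statistic. Marker scores are means of log2(CPM + 1), and ratios are differences of log2 CPM with a prior count of 2. Both were compared by exact permutation over the 70 labellings of 8 mice. Marker sums are linear CPM added over a list. The procedure was tested on simulated data. No pair of libraries in a group was alike, the closest having a chi-square of 3.57 per gene. The labels number the samples without naming litters, cages or preparation days, so p-values measure the spread between these samples.

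Named genes were the 8 members, in each list up to 5 genes with the smallest adjusted p past 0.05 in untreated mice at 155 days, list genes past it in OKN-007 comparisons (0 genes), and the 3 genes most correlated with each member. The result of 1 gene that the rule names is not reported here. Gapdh and Gap43 were named after their values were seen. The members and lists were chosen with earlier results of these data known. Alternatives were DESeq2 1.42.0, the likelihood ratio test, RLE factors, library size alone, no filter, a minimum of 10 counts, a single fit of 32 mice, fits of the compared groups alone, a caudal Hox covariate (added for the differences between ages after the data were seen), a replicate block, other pseudocounts, and leaving out each mouse. The symbol Aldoa matched 2 IDs and was not used. Sequence letters of Slc16a7, Bsg and all proteins were not used here.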

Additional observations from a re-analysis of the deposited data

Results flagged for a closer look

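In 3 of 64 groups of 4 mice, 1 mouse stood apart from the other 3 of its group by Dixon's criterion, which chance alone gives in about 3.2 groups. Slc16a1 read 134.1 CPM in OKN-007-treated G93A mouse 13 at 90 days, with the next mouse at 162 CPM. Ldhb read 869 CPM in untreated WT mouse 2 at 155 days, with the next at 681 CPM, and 690.6 CPM in OKN-007-treated WT mouse 5 at 155 days, with the next at 677 CPM in a group that otherwise spans a narrow range. Untreated WT mouse 2 also had the highest Bsg value of its group.

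The G93A change differed between 155 and 90 days, by a test of the difference itself in the fit of all 32 mice, for 4 genes in each treatment arm. Of all 19829 genes tested, 21.2% passed in untreated and 23% in treated mice, so such a difference was common. In untreated mice the differences on the log2 scale were 1.08 for Slc16a1, 2.78 for Slc16a3, 0.65 for Ldha and 2.14 for Hk2. In OKN-007-treated mice they were 1.16 for Slc16a1, 2.82 for Slc16a3, 0.59 for Ldha and 2.16 for Hk2. The arms share no mice. At the same time the summed microglial markers of untreated mice went from 376 to 577 CPM at 90 days up to 1367 to 2432 CPM at 155 days in G93A mice, and their part was not tested.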

How the results depend on the processing

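Of 2072 values of the members' log2 fold changes under alternatives, 1189 that left out 1 mouse and 839 others counted as unchanged. These kept their side of an adjusted p of 0.05 and did not cross 0 by more than 1 SE from the main value. Some of them changed sign by less than that. Slc16a1 in untreated G93A against WT mice at 90 days, for example, ran from -0.046 to 0.092 over the mice left out. The calls for Slc16a1, Slc16a3, Ldha and Hk2 at 155 days held under every alternative run, and no member was called at 90 days or for OKN-007 under any. With the caudal Hox covariate Slc16a7 in untreated mice at 155 days turned to -0.046. Counting only moves of more than 1 SE from the main value, leaving out 1 mouse at a time took 6 uncalled values across 0. Their ranges were -0.059 to 0.101 for Bsg in untreated G93A against WT mice at 155 days, -0.212 to 0.188 for Slc16a3 (G93A mice) and -0.134 to 0.019 for Ldhb (WT mice) under OKN-007 at 155 days, -0.020 to 0.150 for the Bsg interaction at 155 days, -0.132 to 0.010 for Ldha under OKN-007 in G93A mice at 90 days, and -0.053 to 0.215 for the age difference of Slc16a7. The members called between ages in untreated WT mice ranged from 1 to 3 over the mice left out. The age difference of Ldhb passed under DESeq2, RLE factors and library size alone in both arms (-0.373 to -0.359), as did that of Hif1a in treated mice (0.456 to 0.467). The cause of these changes was not tested.

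Replicate numbers recur at both ages, but same-numbered samples did not deviate together (r from -0.215 to 0.134, the own number being best in 3 of 16). The labels do not say whether these samples share more than a number, and weak correlations cannot exclude it. With a replicate block, members called stayed at 4 in untreated and came to 5 in treated mice for the age difference, with Hif1a at 0.45 (adjusted p = 0.0428 by edgeR). Within an age the groups share no number, so no block could be fitted.

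Counts over all genes that moved by more than 1.5 times were those for OKN-007-treated G93A against WT mice at 155 days with the Hox covariate (5118 against 7748), the age difference in untreated WT mice without mouse 4 at 90 days (3115 against 4934), and those at 0 by edgeR. Without a filter on low counts, the latter became 39 and 24 for G93A against WT mice at 90 days (untreated, treated), 17 and 10 for OKN-007 at 155 days (G93A, WT), 8 and 14 at 90 days, and 8 and 3 for the interaction at 155 and 90 days. DESeq2 gave 15, 1, 0, 3 and 3 and the likelihood ratio test 11, 3, 0, 4 and 3 for the first 4 of these and the interaction at 155 days. Depth limits Slc16a3 most, at 20 to 57 counts in every mouse other than the G93A mice at 155 days.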
